A study of Homo sapiens with 12 samples.

Results

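The ERK feedback genes are transcripts that rise when the RAS, RAF, MEK and ERK kinase cascade is active and whose products mostly restrain that cascade. A set of 10 such genes was examined, among 18132 genes named by at least 1 probe set: the phosphatase genes DUSP4, DUSP5 and DUSP6, the Sprouty and SPRED genes SPRY2, SPRY4, SPRED1 and SPRED2, the ETS factor genes ETV4 and ETV5, and PHLDA1. The list was set by name, and each gene was represented by its brightest probe set, meaning the one annotated to that symbol alone with the highest mean over all 12 arrays. Another 18 probe sets of these genes, 28 in all, served as a check. All 10 genes had a scaled signal of at least 100 on all 12 arrays, so none entered through 1 group alone.

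The measurements came from Affymetrix PrimeView arrays of 2 human uveal melanoma cell lines. CANT1 MUM2B cells overexpressed the long noncoding RNA CANT1 and were set against wild type MUM2B cells, and CANT1 OCM1 cells were set against wild type OCM1 cells, with 3 arrays in each of the 4 groups. The labels describe neither an empty vector control nor how many clones the CANT1 cells came from, so CANT1, the vector and selection cannot be told apart. The growth note of the replicate 1 arrays speaks of puromycin selection and that of replicates 2 and 3 of DMEM with serum, so each group divides into 1 array of the first set and 2 of the second. Nothing in the labels says that replicates were separate cultures, and the p-values below therefore reflect differences among arrays that could be purely technical.

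When growth factor receptors, or in most uveal melanomas mutant Gαq or Gα11 acting through protein kinase C, switch on RAS and RAF, ERK activates ETS factors and the feedback genes are transcribed. DUSP proteins then remove phosphate from ERK, while Sprouty and SPRED proteins act upstream, SPRED by bringing the RAS inactivator neurofibromin to the membrane. The transcripts are for this reason widely read as a record of ERK output, which the arrays do not measure directly.

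Levels are given as log2(scaled signal + 32), each array scaled to a common trimmed mean. The scaled replicates 2 and 3 of each group correlated at 0.996 to 0.997 over genes, whereas 1 array did not resemble its line: wild type OCM1 replicate 1 averaged a correlation of 0.901 with the remaining OCM1 arrays, and the 11 others averaged 0.963 to 0.987 within their lines. The log2 difference between the 3′ and 5′ ACTB probe sets, a measure of RNA quality, ranged from 2.15 to 2.51 on replicate 1 and from 0.473 to 0.911 on replicates 2 and 3. Melanocytic markers, 7 of 8 listed genes, summed to a signal of 641 to 734 in CANT1 and 620 to 829 in wild type MUM2B cells, where MLANA, TYRP1 and S100B never reached 100, so the defining markers of the labelled tumour type were near background in that line. In OCM1 the same sum was 75702 to 81555 in CANT1 cells, against 75074 and 76992 in wild type replicates 3 and 2 and 14219 in wild type replicate 1. The 1 probe set naming CASC15, the locus of the CANT1 RNA, had a signal of 12.9 to 17.9 on all 12 arrays; whether it lies in the overexpressed transcript is not given in the sources used here, so it does not check the labels.

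Of the 10 genes, 6 had a promoter window in the RefSeq table (GRCh38.p14). The 250 bases before the transcription start are shown for DUSP6, SPRY4 and SPRY2, the 3 genes that rose with CANT1 in both lines on replicates 2 and 3 as described below. Capitals mark each ETS core, the letters GGAA read on either strand and so shown as GGAA or TTCC, which is the sequence that ETS factors such as ETV4 and ETV5 recognise. The windows lie at chr12:89352502-89352751, chr5:142324248-142324497 and chr13:80341127-80341376, all on the minus strand and printed 5′ to 3′. The SPRY2 window is the first of 3 listed starts. The SPRY4 window lies at its only listed start, which differs from the gene start in the RefSeq gene annotation, whereas those of DUSP6 and SPRY2 match it.
DUSP6: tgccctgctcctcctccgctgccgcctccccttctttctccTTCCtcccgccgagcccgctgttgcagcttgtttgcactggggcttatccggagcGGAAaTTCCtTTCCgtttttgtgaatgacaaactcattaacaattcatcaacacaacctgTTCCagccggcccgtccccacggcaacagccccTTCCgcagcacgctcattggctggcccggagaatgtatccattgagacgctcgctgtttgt
SPRY4: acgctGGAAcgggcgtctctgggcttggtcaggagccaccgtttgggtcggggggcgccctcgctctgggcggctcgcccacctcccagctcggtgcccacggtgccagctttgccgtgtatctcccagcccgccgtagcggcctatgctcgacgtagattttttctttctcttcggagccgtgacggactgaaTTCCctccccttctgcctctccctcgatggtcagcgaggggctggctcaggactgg
SPRY2: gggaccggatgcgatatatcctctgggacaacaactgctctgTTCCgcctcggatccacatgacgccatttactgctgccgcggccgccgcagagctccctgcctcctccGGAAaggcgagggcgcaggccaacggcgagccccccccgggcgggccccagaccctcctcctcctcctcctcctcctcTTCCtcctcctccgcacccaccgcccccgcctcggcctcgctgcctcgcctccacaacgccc
DUSP6 held 6 cores, SPRY4 held 2 and SPRY2 held 3, beside a median of 3 (quartiles 2 and 4) over 35116 windows of the same length, of which 92.7% held at least 1. The longer form CCGGAA, which contains the core, was found in the first SPRY2 window and in the PHLDA1 window and in 14.5% of all windows. Neither TGANTCA, an AP-1 heptamer present in 6.57% of windows, nor the CRE palindrome TGACGTCA, present in 1.65%, was found in a window of these genes on either strand. These matches describe the letters and are not evidence of binding.

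**Figure D1:**
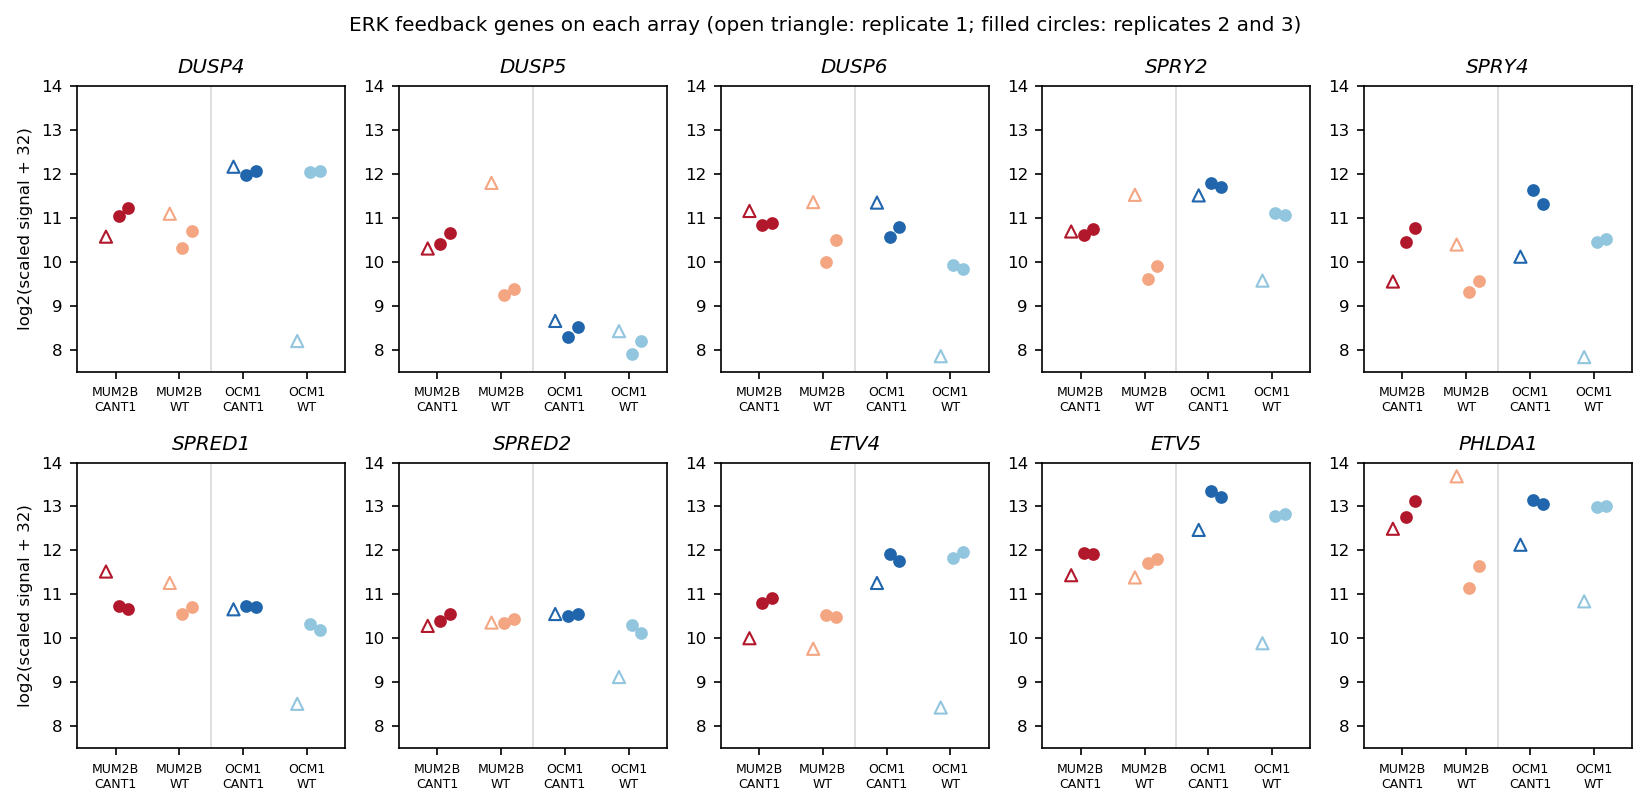
Log2(scaled signal + 32) of the 10 ERK feedback genes on each of 12 arrays, 1 panel a gene, with CANT1 left of wild type within MUM2B and OCM1; open triangles are replicate 1 and filled circles replicates 2 and 3. The wild type OCM1 triangle is the lowest point of its group for 9 genes (8.20 for DUSP4), whereas the wild type MUM2B triangle is the highest of its group for DUSP5 (11.80) and PHLDA1 (13.69).

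In MUM2B cells, 7 of the 10 ERK feedback genes rose with CANT1 on replicates 2 and 3: all 3 DUSP genes, both Sprouty genes, ETV4 and PHLDA1. Over all 12105 genes tested on these 8 arrays, 14.4% rose and 25% changed in either direction (limma, Benjamini-Hochberg adjusted p at most 0.05). The 10 differences ran from 0.067 to 1.55 with a median of 0.62 on the log2 scale, beside a median of 0.0046 over all genes. The count was 4 without wild type replicate 2 or without CANT1 replicate 3. The share of all genes was not counted with an array left out. Replicate 1 went the other way for most of the 10 genes: only SPRED1, ETV4 and ETV5 were above zero there, as were 39.6% of all genes. DUSP5 and PHLDA1 were lower by at least 2-fold, as were 1.87% of all genes. The replicate 1 median was −0.36, beside −0.072 over all genes, and of the 7 genes that rose only ETV4 had the same sign. With all 12 arrays in 1 fit, none of the 10 passed, and none of all 12715 genes did (0%). None of the 10 had an unadjusted p under 0.05, a level at which the share of all genes was not counted. In bulk RNA, fewer cells of a type and less RNA per cell cannot be told apart.

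Among the phosphatases, DUSP5, a nuclear enzyme specific for ERK, read 10.30, 10.41 and 10.67 in CANT1 MUM2B cells (replicates 1, 2 and 3), against 11.80, 9.24 and 9.37 in wild type cells. Both later CANT1 arrays were above both later wild type arrays, and the replicate 1 pair was ordered the opposite way by 1.49. On replicates 2 and 3 DUSP5 rose by 1.23 ± 0.13 (SE, n = 2 per group, adjusted p = 0.000274). DUSP6, the cytoplasmic phosphatase of ERK, read 11.16, 10.85 and 10.89 in CANT1 cells, against 11.36, 9.99 and 10.50 in wild type cells. It rose by 0.62 ± 0.15 (adjusted p = 0.0116), and its later wild type arrays lay farther apart than its CANT1 arrays. DUSP4, a nuclear phosphatase of ERK and JNK, read 10.57, 11.04 and 11.22 in CANT1 cells, against 11.10, 10.32 and 10.70 in wild type cells, and rose by 0.62 ± 0.13 (adjusted p = 0.00560). The later arrays of CANT1 and wild type cells did not overlap for either gene. Leaving out wild type MUM2B replicate 2 brought DUSP6 to 0.37 (adjusted p = 0.103) and DUSP4 to 0.43 (adjusted p = 0.0565), and leaving out CANT1 MUM2B replicate 3 gave adjusted p-values of 0.0788 and 0.0605.

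The Sprouty genes moved together in MUM2B. SPRY4, an inhibitor of receptor signalling to RAF, read 9.55, 10.45 and 10.77 in CANT1 cells, against 10.40, 9.32 and 9.56 in wild type cells, and rose by 1.17 ± 0.14 on replicates 2 and 3 (adjusted p = 0.000495). SPRY2, its relative that binds CBL and GRB2, read 10.69, 10.62 and 10.75 in CANT1 cells, against 11.53, 9.62 and 9.90 in wild type cells, and rose by 0.93 ± 0.11 (adjusted p = 0.000495). For both genes the wild type array of replicate 1 was the highest of its group and lay above the CANT1 array of the same number, by 0.84 for SPRY4 and 0.83 for SPRY2. The SPRED genes did not pass: the difference was 0.067 ± 0.097 for SPRED1 (adjusted p = 0.667) and 0.070 ± 0.10 for SPRED2 (adjusted p = 0.672). SPRED2 was also the flattest gene of the list in MUM2B, at 10.28 to 10.55 in CANT1 and 10.36 to 10.44 in wild type cells.

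ETV4, a PEA3 family ETS factor, read 10.00, 10.81 and 10.92 in CANT1 MUM2B cells, against 9.76, 10.54 and 10.50 in wild type cells. CANT1 was higher within each replicate number, and on replicates 2 and 3 ETV4 rose by 0.35 ± 0.10 (adjusted p = 0.0268), a call lost without wild type replicate 2 (0.37, adjusted p = 0.0969), wild type replicate 3 (0.32, adjusted p = 0.103) or CANT1 replicate 3 (0.29, adjusted p = 0.170). ETV5, its close relative, differed by 0.17 ± 0.092 (adjusted p = 0.212), with 11.44 to 11.95 in CANT1 and 11.39 to 11.81 in wild type cells. PHLDA1, a pleckstrin homology-like protein whose transcript follows ERK activity in several cell types, had the largest difference of the list. It read 12.49, 12.76 and 13.13 in CANT1 cells, against 13.69, 11.15 and 11.65 in wild type cells, and rose by 1.55 ± 0.16 on replicates 2 and 3 (adjusted p = 0.000241). Its replicate 1 pair differed by −1.19, so the 3 wild type arrays spanned more than the difference itself.

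Markers of other cell types moved in the same arrays. All 4 listed endothelial markers were measured, and 2 of them rose with CANT1 on MUM2B replicates 2 and 3 (KDR and CDH5), where 14.4% of all genes rose. The list sum was 4634 and 5080 in CANT1 cells, against 2763 and 3295 in wild type cells. Of 3 tested epithelial markers KRT19 rose, with a list sum of 644 and 598 in CANT1 against 534 and 545 in wild type cells, and CD68, the 1 immune marker tested, rose, with a list sum of 300.0 and 386 against 271 and 209. The ACTB 3′ to 5′ difference overlapped on replicates 2 and 3, at 0.526 and 0.584 in CANT1 and 0.550 and 0.473 in wild type cells. In replicate 1 each of these list sums was lower in CANT1 than in wild type cells. They were 3214 against 4193 (endothelial), 667 against 697 (epithelial) and 441 against 472 (immune). CDH5, which made up most of the endothelial sum, ran from 2598 to 4634 in CANT1 and from 2385 to 3238 in wild type cells over all replicates. KDR was dim, at 116 to 198 in CANT1 and 126 to 150 in wild type cells, close to the signal minimum of 100. The part of these measures in the ERK feedback genes was not tested.

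**Figure D2:**
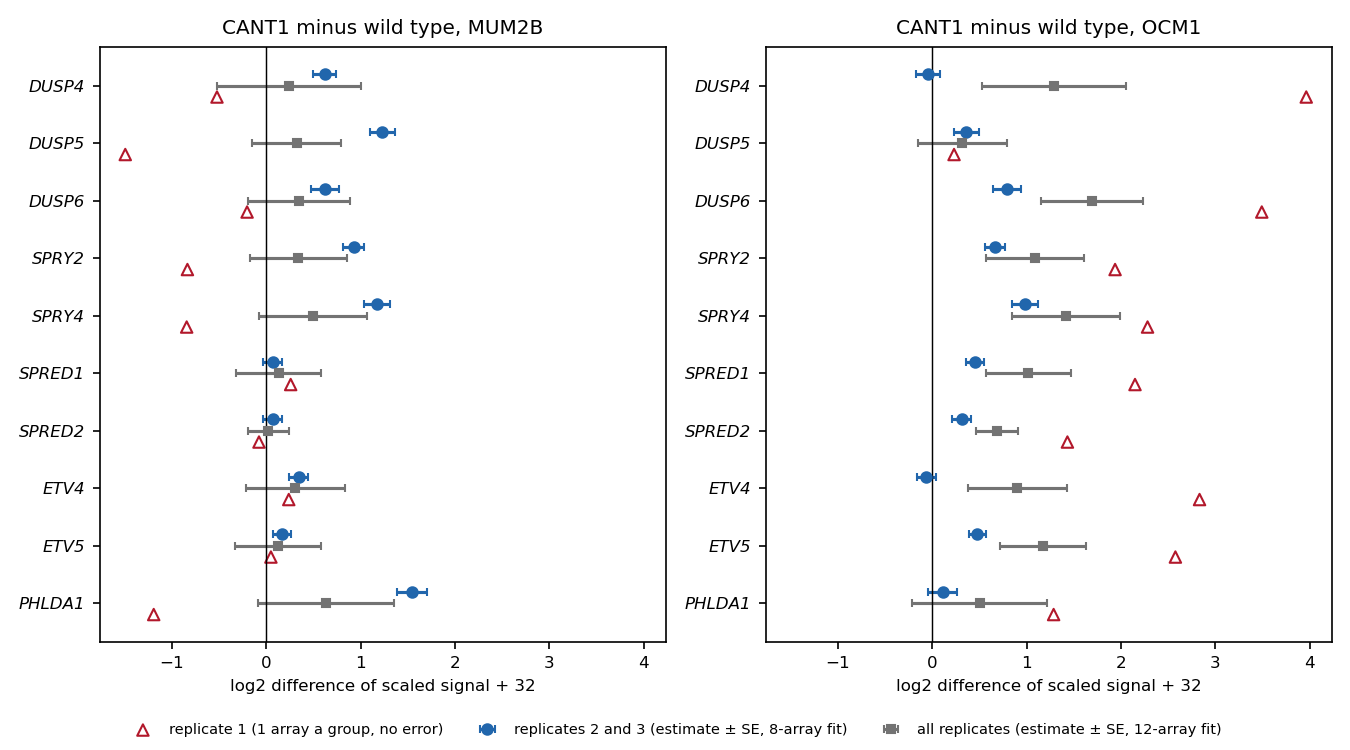
CANT1 minus wild type difference of log2(scaled signal + 32) for each ERK feedback gene in MUM2B and in OCM1; blue circles are the fit on replicates 2 and 3 and grey squares the fit on 12 arrays, both with bars of 1 SE, and open red triangles are the single replicate 1 pair. In MUM2B the circles lie at 0.067 to 1.55 and 7 triangles lie below zero, and in OCM1 all 10 triangles lie above zero, up to 3.96 for DUSP4.

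In OCM1 cells, 6 of the 10 genes rose with CANT1 on replicates 2 and 3, namely DUSP6, SPRY2, SPRY4, SPRED1, SPRED2 and ETV5, and none fell. Over all genes tested 13.7% rose and 23.3% changed in either direction. The 10 differences ran from −0.061 to 0.99 with a median of 0.41, beside 0.038 over all genes. In replicate 1 all 10 genes were higher in CANT1 cells, as were 43.2% of all genes. For 9 of them the rise was at least 2-fold, a size that 9.66% of all genes reached upward in that pair. The sign was that of replicates 2 and 3 for 8 of the 10, since DUSP4 and ETV4 lay just below zero on the later arrays, and DUSP5 differed by less in replicate 1 (0.23) than on the later arrays (0.36). Those differences rest on the wild type OCM1 array that stands apart and is low for the melanocytic markers too. With all 12 arrays none of the 10 passed (0.118% of all genes did), and none passed without that array either. Before adjustment 5 of the 10 had a limma p under 0.05. The share of all genes under that unadjusted level was not counted, so the 5 say nothing particular about the list.

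Of the OCM1 phosphatases only DUSP6 passed. It read 11.35, 10.57 and 10.79 in CANT1 cells, against 7.86, 9.93 and 9.83 in wild type cells, so the groups did not overlap over all 3 replicates, and it rose by 0.80 ± 0.15 on replicates 2 and 3 (adjusted p = 0.00312). DUSP4 was high and flat on the later arrays, at 11.97 and 12.07 in CANT1 against 12.05 and 12.07 in wild type cells, a difference of −0.046 ± 0.13 (adjusted p = 0.834). Its replicate 1 pair, at 12.16 in CANT1 and 8.20 in wild type cells, differed by 3.96. DUSP5 read 8.66, 8.30 and 8.52 in CANT1 cells, against 8.43, 7.89 and 8.20 in wild type cells. Its difference of 0.36 ± 0.13 did not pass (adjusted p = 0.0696), although it passed with the replicate number as a block (adjusted p = 0.0171) and without wild type OCM1 replicate 3 (0.51, adjusted p = 0.0485). Without wild type OCM1 replicate 2 it was 0.21 (adjusted p = 0.378).

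Both Sprouty genes rose in OCM1. SPRY4 read 10.12, 11.63 and 11.32 in CANT1 cells, against 7.84, 10.46 and 10.51 in wild type cells, and rose by 0.99 ± 0.14 (adjusted p = 0.000607). SPRY2 read 11.51, 11.79 and 11.71 in CANT1 cells, against 9.57, 11.11 and 11.06 in wild type cells, and rose by 0.67 ± 0.11 (adjusted p = 0.00154). Every CANT1 array lay above every wild type array for SPRY2, and for SPRY4 on replicates 2 and 3. SPRED1, one of the pair of SPRED inhibitors of RAS, read 10.66, 10.73 and 10.70 in CANT1 cells, against 8.51, 10.32 and 10.20 in wild type cells, and rose by 0.46 ± 0.10 (adjusted p = 0.00625), which became 0.40 (adjusted p = 0.0560) without wild type replicate 3. SPRED2 read 10.55, 10.51 and 10.56 in CANT1 cells, against 9.12, 10.31 and 10.13 in wild type cells, and rose by 0.31 ± 0.10 (adjusted p = 0.0452). That call was lost without any one of the 4 OCM1 arrays, with values of 0.22 to 0.41 and adjusted p-values of 0.0503 to 0.260, and without wild type MUM2B replicate 2 or 3 (adjusted p = 0.0553 and 0.0551), and it was also lost on the deposited values without scaling (0.27, adjusted p = 0.121) with an offset of 16 (0.32, adjusted p = 0.0524) and with the replicate number as a block (adjusted p = 0.0515). Over the 3 replicates DUSP6, SPRY2, SPRED1 and SPRED2 had no overlap between CANT1 and wild type OCM1 cells, as had 11.5% of all genes; in MUM2B all 10 overlapped, where 4.78% of all genes did not.

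The ETS factors parted in OCM1. ETV5 read 12.47, 13.34 and 13.22 in CANT1 cells, against 9.89, 12.78 and 12.83 in wild type cells, and rose by 0.48 ± 0.092 (adjusted p = 0.00381). ETV4 read 11.26, 11.92 and 11.76 in CANT1 cells, against 8.43, 11.83 and 11.96 in wild type cells, with a difference of −0.061 ± 0.10 on the later arrays (adjusted p = 0.706). PHLDA1 was close between the later groups as well, at 13.14 and 13.06 in CANT1 and 12.98 and 13.01 in wild type cells, a difference of 0.11 ± 0.16 (adjusted p = 0.662). On these 8 arrays the ACTB 3′ to 5′ difference was 0.911 and 0.845 in CANT1 and 0.750 and 0.666 in wild type OCM1 cells, and of the melanocytic markers PMEL and S100B rose while TYRP1 fell by 2.11. Their part in the ERK feedback genes was not tested.

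DUSP6, SPRY2 and SPRY4 thus rose in both lines on replicates 2 and 3, where 14.4% of all genes rose in MUM2B and 13.7% in OCM1. The share of all genes that rose in both lines was not counted, so the number of such genes is a description only. A test of the difference, the CANT1 effect in OCM1 minus that in MUM2B, was called for 3 of the 10 genes on these arrays, all negative, as it was for 21.9% of all genes, with 10.6% negative. For PHLDA1 it was −1.44 ± 0.22 (adjusted p = 0.00171), for DUSP5 −0.87 ± 0.19 (adjusted p = 0.00819) and for DUSP4 −0.67 ± 0.18 (adjusted p = 0.0217). The DUSP4 call was lost when any of 5 arrays was left out: wild type MUM2B replicate 2 (−0.48), CANT1 MUM2B replicate 3 (−0.57), either wild type OCM1 array (−0.67 and −0.66) or CANT1 OCM1 replicate 2 (−0.62). The difference for DUSP6 was 0.17 ± 0.21, for SPRY2 −0.26 ± 0.15 and for SPRY4 −0.18 ± 0.20, none of which passed. Nor did ETV4 (−0.41), SPRED1 (0.39), ETV5 (0.31) or SPRED2 (0.24), although an intensity trend in the fit brought ETV4, SPRED1 and ETV5 past the threshold (adjusted p = 0.0263, 0.0405 and 0.0325). With every probe set as its own row, the PHLDA1 difference was called for the probe set used and 1 other (−1.04), whereas its remaining 2 gave −0.13 and 0.15 and did not pass (adjusted p = 0.559 and 0.540). For SPRED1, 2 other probe sets were called with the opposite sign to the one used, at −1.93 (adjusted p = 9.8e-05) and −0.9998 (adjusted p = 0.00240). The other ETV4 probe set was called at −0.50 (adjusted p = 0.0298), and 2 other ETV5 probe sets were called at 0.55 and 0.73. Replicate 1 had the opposite sign for the 3 called genes, since all 10 differences were positive there, at 1.51 to 4.49, as were 51.1% of all genes. With all 12 arrays none of the 10 passed, as against 0.0472% of all genes.

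Between the lines, in CANT1 cells on replicates 2 and 3, 5 genes were higher in OCM1 and 1 lower than in MUM2B, where 66.3% of all genes were called (38.2% higher and 28.1% lower), and in wild type cells 6 were higher and 2 lower, where 64.7% were called (35.2% higher and 29.5% lower). Most genes at large differed between the lines, so these counts say nothing particular about the 10. DUSP5 was lower in OCM1, with differences of −2.13 ± 0.13 in CANT1 and −1.26 ± 0.13 in wild type cells. DUSP4, SPRY2, SPRY4, ETV4 and ETV5 were higher in OCM1, by 0.86 to 1.35 in CANT1 and 1.04 to 1.55 in wild type cells (largest adjusted p = 0.000174 and 3.61e-05). As a row of its own, the other tested SPRY4 probe set did not pass in CANT1 cells (0.28, adjusted p = 0.0513). It passed in wild type cells (0.30, adjusted p = 0.0398). PHLDA1 was higher in OCM1 by 1.59 ± 0.16 in wild type cells and by 0.16 ± 0.16 in CANT1 cells, where it did not pass. Its direction depended on the probe set: as rows of their own, 1 other was likewise higher in wild type OCM1 cells (1.00), whereas another was called lower in OCM1 in both CANT1 cells (−0.50, adjusted p = 0.000796) and wild type cells (−0.37, adjusted p = 0.00585), and the last, at −0.066 and −0.22, did not pass in either. SPRED1 differed by 0.012 ± 0.097 in CANT1 cells, where it did not pass, and by −0.38 ± 0.097 in wild type cells, where it passed. Its other probe sets disagreed here too: in CANT1 cells 3 of them were called lower in OCM1 (−1.42, −0.78 and −0.74), and in wild type cells 2 were called lower (−0.74 and −0.43) and 1 higher (0.51, adjusted p = 0.00474). DUSP6 did not pass in CANT1 cells (−0.19 ± 0.15), where its 3 other probe sets were called lower (−0.43 to −0.39), and lay at the threshold in wild type cells, at −0.36 ± 0.15 (adjusted p = 0.0501). The wild type value passed under 10 of 21 alternatives, the replicate block among them (adjusted p = 0.0347), and all 4 DUSP6 probe sets passed as rows of their own (−0.51 to −0.33). It was −0.62 without wild type MUM2B replicate 2 (adjusted p = 0.00184) and −0.11 without wild type MUM2B replicate 3 (adjusted p = 0.512). Ranked by the later arrays, DUSP5 ran from CANT1 MUM2B through wild type MUM2B and CANT1 OCM1 to wild type OCM1, where the test without a block did not separate the 2 OCM1 groups and the middle pair, which was not tested, did not overlap. PHLDA1 had wild type MUM2B at the bottom and its 3 other groups between 12.76 and 13.14, and ETV5 had CANT1 OCM1 at the top and the MUM2B groups at the bottom, where CANT1 and wild type were not separated.

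Replicate 1 gave another picture of the lines. Wild type OCM1 was below wild type MUM2B for all 10 genes, with differences of −3.50 to −1.24, where 50.2% of all genes were above zero. CANT1 OCM1 was above CANT1 MUM2B for 7 of 10, near the 56.8% of all genes. With all 12 arrays only DUSP5 passed, at −1.97 ± 0.47 in CANT1 cells (adjusted p = 0.00887) and −1.96 ± 0.47 in wild type cells (adjusted p = 0.0106), where 37.2% and 33% of all genes did. The count became 5 and 4 without wild type OCM1 replicate 1 and 3 and 3 without wild type MUM2B replicate 1, and it was 3 in wild type cells without wild type OCM1 replicate 2. The share of all genes called was not counted with an array left out, so these changed counts say nothing particular about the 10 genes.

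**Figure D3:**
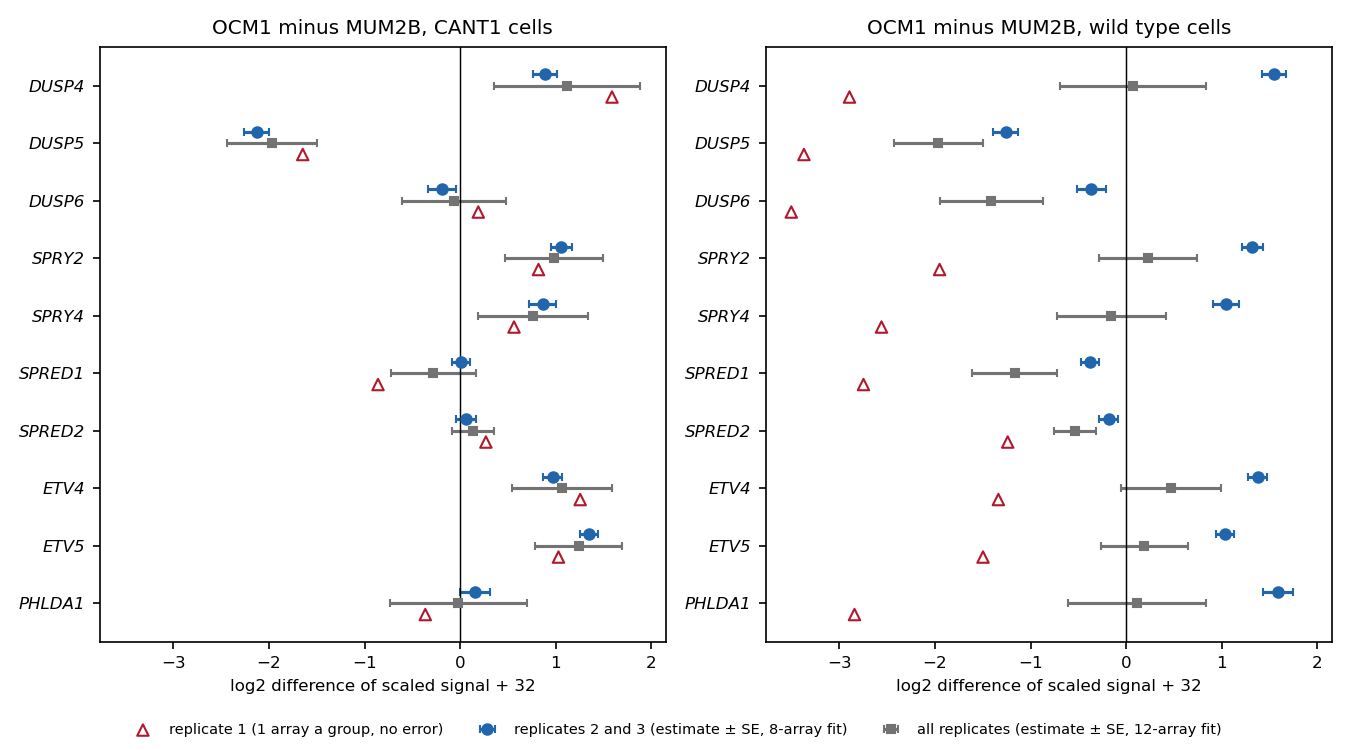
OCM1 minus MUM2B difference of log2(scaled signal + 32) for each ERK feedback gene in CANT1 and in wild type cells; symbols as in the plot of CANT1 effects, with bars of 1 SE. DUSP5 is the gene farthest below zero on replicates 2 and 3 in both panels (−2.13 and −1.26), and all 10 replicate 1 triangles of wild type cells lie at −1.24 or below.

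The other probe sets bore on some of these values. The 4 DUSP6 probe sets rose in both lines, by 0.62 to 0.84 in MUM2B and 0.74 to 0.89 in OCM1 when every probe set was tested as its own row, and the 4 ETV5 probe sets rose in OCM1 by 0.40 to 0.53. In MUM2B the ETV5 probe set used differed by 0.17, whereas the others lay below zero, at −0.21, −0.018 and −0.00087, and none passed. The 2 ETV4 probe sets differed by 0.34 and 0.35 in MUM2B. SPRED1 had 5 probe sets that disagreed: in MUM2B they differed by 0.014 to 1.21 and 2 of them rose, and in OCM1 the one used rose by 0.46 while another fell by 0.72 (adjusted p = 0.00287). PHLDA1 disagreed in MUM2B, with 1.55, 1.14, 0.33 and −0.033, of which the first 3 passed, and in OCM1 none of its 4 passed. The 2 other SPRY4 probe sets differed by less than the one used, and 1 of these never reached a signal of 100. The other of these rose in MUM2B (0.48, adjusted p = 0.0130) and in OCM1 (0.46, adjusted p = 0.0160). The other SPRED2 probe sets did not pass in OCM1, at 0.28 (adjusted p = 0.0793) and 0.16 (adjusted p = 0.311). DUSP4, DUSP5 and SPRY2 have 1 probe set each.

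**Figure D4:**
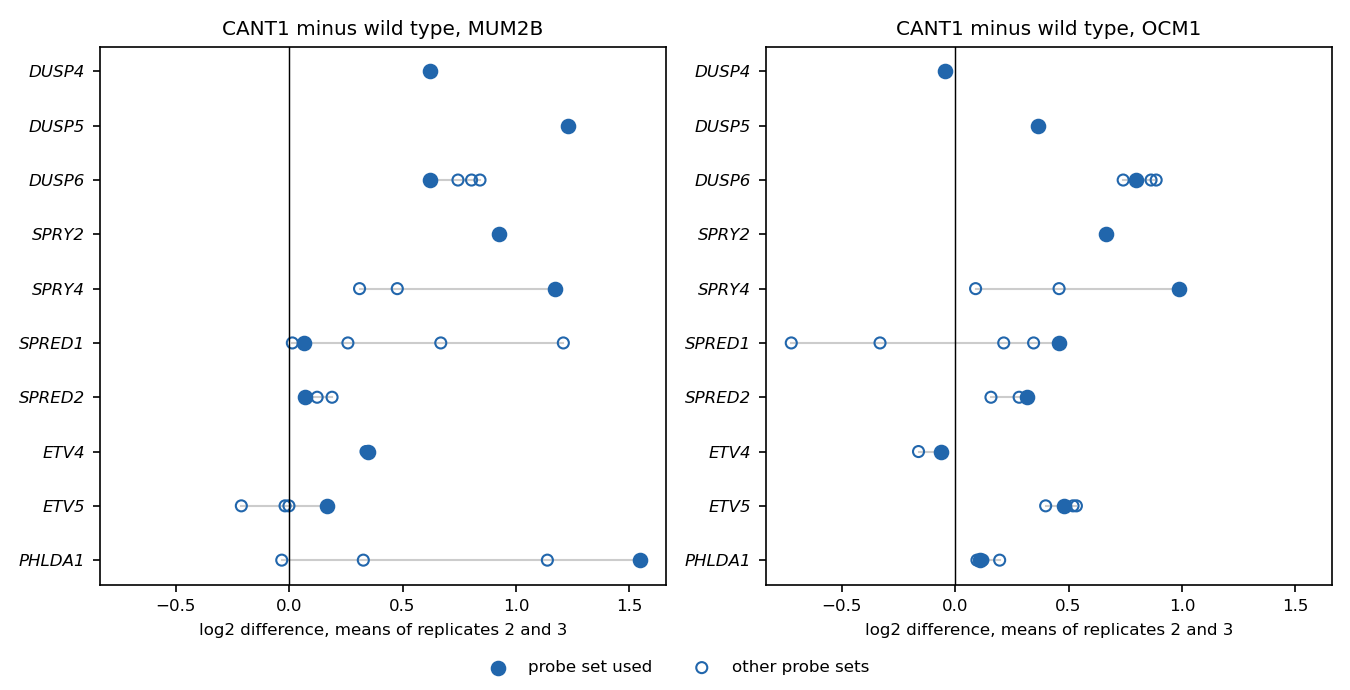
CANT1 minus wild type difference in the mean log2(scaled signal + 32) of replicates 2 and 3 for all 28 probe sets of the 10 genes in MUM2B and OCM1; filled circles are the probe sets used and open circles the others. The DUSP6 circles lie together, whereas those of SPRED1 spread over −0.72 to 0.46 in OCM1 and those of PHLDA1 over −0.033 to 1.55 in MUM2B.

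Other genes of the pathway were counted in lists chosen by function, on replicates 2 and 3 unless stated, where over all genes tested 14.4% rose and 25% changed in either direction in MUM2B, against 13.7% and 23.3% in OCM1. Of 16 other ERK output genes, 7 rose and none fell in MUM2B and 7 rose and 2 fell in OCM1, with medians of 0.28 and 0.19 beside 0.0046 and 0.038 over all genes. EGR1, an immediate early zinc finger factor, read 8.97 and 8.63 in CANT1 MUM2B cells against 6.61 and 6.92 in wild type cells, and 9.20 and 9.27 in CANT1 OCM1 cells against 6.83 and 6.95 in wild type cells. It rose by 2.04 ± 0.13 in MUM2B and 2.35 ± 0.13 in OCM1, while its replicate 1 pairs differed by −1.05 and −1.14. Its wild type signals on replicates 2 and 3 were dim in both lines, below the signal minimum set for testing. EGR1 therefore entered the fit on these replicates through its CANT1 arrays alone. IER3, an early response gene, rose by 0.85 and 1.08, MAFF, a small MAF factor, by 0.86 in MUM2B, and CCND1, which encodes cyclin D1, by 0.84 in OCM1. Their replicate 1 pairs differed by −1.09 and 1.81 for IER3, −0.76 for MAFF and 0.078 for CCND1. The 2 that fell in OCM1 were MYC (−0.77, and −0.0060 in replicate 1) and FOSL1 (−0.48, and 0.80 in replicate 1), named after their values were seen. Of 14 tested relatives of the 10 genes, 4 rose and 1 fell in MUM2B, beside the 14.4% and 25% of all genes, led by DUSP10 (0.83) and DUSP16 (0.76). In OCM1 2 rose, beside 13.7%, PHLDA3 (1.00) and DUSP1 (0.47). The replicate 1 pairs of these relatives had the opposite sign: −0.73 for DUSP10, −0.74 for DUSP16, −0.20 for PHLDA3 and −1.50 for DUSP1. SPRY1 and ETV1 stand in both lists.

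Genes upstream of ERK were counted in the same way. In the cascade list 18 of 24 genes had a probe set naming them alone and 17 were tested: 3 rose and 1 fell in MUM2B, where 25% of all genes changed, and 3 rose in OCM1, where 23.3% changed, so these counts lie near those shares. RRAS2, a RAS relative, rose in both lines (0.33 and 0.52), SOS1, an exchange factor of RAS, rose in MUM2B (0.54), HRAS fell there by 0.48, and PTPN11, the phosphatase SHP2, and SOS2 rose in OCM1 (0.37 and 0.35). In replicate 1 each of these differences had the opposite sign. They were −0.20 and −0.42 for RRAS2, −0.21 for SOS1, 0.72 for HRAS, −0.45 for PTPN11 and −0.38 for SOS2. Of 7 tested genes of the Gαq route, PRKCD, a protein kinase C, rose in MUM2B (0.51), and PLCB4, the phospholipase below Gαq, fell by 0.33 in MUM2B and rose by 0.49 in OCM1. Their replicate 1 pairs differed by −0.36 for PRKCD in MUM2B, and for PLCB4 by 1.49 in MUM2B and 1.98 in OCM1. Of 11 tested growth factor receptors none passed in MUM2B and FGFR1 rose in OCM1 (0.69), while its replicate 1 pair differed by −1.16. No gene of these 5 lists passed with all 12 arrays in either line.

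The 10 genes were compared over all 12 arrays after the mean of each labelled set was taken off. Each correlated with the mean of the other 9 at 0.73 to 0.92, except DUSP5 at 0.17 (Pearson, 12 arrays, as a description of arrays that share lines and sets). The genes outside the list most like its mean were TMEM51 (0.98), FNDC3B (0.97), CNN2 (0.97), ACVR1 (0.97) and CTSB (0.97). Wild type OCM1 replicate 1 was then left out of the correlation only. It still entered the set mean taken off and the mean of all 10. These 5 then stood at 0.92 to 0.96 with that mean. Of the members, which are part of that mean, SPRED1 went from 0.82 to 0.44 and DUSP5 from 0.29 to 0.0010. DUSP6 went from 0.90 to 0.70, SPRED2 from 0.89 to 0.66 and ETV4 from 0.79 to 0.67. SPRY4 (0.94 to 0.95) and SPRY2 (0.88 to 0.90) rose slightly.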

How the data were processed

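RNA of 12 cell line samples was hybridised to PrimeView arrays. The deposited table holds 1 value per probe set and array; the authors' values were read as log2 intensities from their range, MAS5 is named per the submitters' processing notes, and its version, the log base and the normalization are not given in the sources used here. The table has 49395 probe sets: 102 controls, which were dropped, 44988 annotated to a single gene, 1832 to more than 1 and 2473 without a name here; 44961 were matched to current symbols by gene identifier. Each array was brought to a trimmed mean signal of 500 (trim 2%) and 32 was added before the logarithm, which shrinks differences of dim genes. Genes whose signal reached 100 on 3 or more arrays entered limma 3.58.1 in R 4.3.3: 12715 genes on 12 arrays (4 groups and a labelled set term, 7 residual degrees of freedom) and 12105 on the 8 arrays of replicates 2 and 3 (4 degrees of freedom), with Benjamini-Hochberg adjustment at 0.05 over all genes tested. Scaling brings arrays to a common level, so a global shift could not be seen. The number of arrays limits the precision.

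The 10 genes and the lists were chosen with earlier results of these data known. Within each list, up to 3 genes with the largest difference among those past the threshold in each line were named. The minimum of 3 arrays in the 8-array fit and the mean that picked the probe sets were settled after a first look at the results. Array weights were first estimated by REML, which did not converge on 12 arrays, and then gene by gene; both are given. The fits were tested on simulated data with independent noise at the spread of replicates 2 and 3. The simulation held no set effect and no outlying array, so it does not show how the 12-array fit handles either. Numbers were taken to pair 2 groups where all 3 same-numbered pairs of arrays deviated together at a correlation over 0.1. On 12 arrays this held for 4 of 6 pairs of groups (15 of 18 array pairs, 0.029 to 0.62), the OCM1 comparison and both line comparisons among them, but not for CANT1 against wild type MUM2B; on replicates 2 and 3 alone the 6 correlations were −0.12 to 0.22. Replicate 1 is also the first labelled set, so number and set cannot be told apart there. Fits are given without the block, and beside a result with it where the call changed. Raw intensity files were not analysed here. Alternatives covered the scaling, offset, filter, probe sets, intensity trend, weights, set term, replicate block, 2-fold changes and each array left out.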

Additional observations from a re-analysis of the deposited data

Results flagged for a closer look

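The CANT1 effect differed between the lines for 3 of the 10 genes on replicates 2 and 3, by a test of the difference itself (CANT1 effect in OCM1 minus that in MUM2B, limma, adjusted over all genes tested). It was −0.67 for DUSP4, −0.87 for DUSP5 and −1.44 for PHLDA1, lower in OCM1 in each case. The DUSP4 call was lost when any of 5 single arrays was left out (−0.67 to −0.48, adjusted p = 0.0541 to 0.0799). The PHLDA1 difference was called for 2 of its 4 probe sets (−1.44 and −1.04) and not for the others (−0.13 and 0.15), while DUSP4 and DUSP5 have 1 probe set each. DUSP4 and PHLDA1 had differences of −0.046 and 0.11 in OCM1 and of 0.62 and 1.55 in MUM2B, and DUSP5 had 0.36 and 1.23. The single replicate 1 arrays gave the opposite sign for all 3 genes. Over all genes tested on these arrays 21.9% differed between the lines. The cause was not tested.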

How the results depend on the processing

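Of 245 counts of called genes under alternatives, 219 stayed within 1.5 times the reported count. Of 1040 single gene values under alternatives on 8 arrays, 988 kept their direction and their side of the threshold, 22 no longer passed, 18 newly passed and 12 changed sign; of 1290 on 12 arrays the numbers were 1159, 0, 67 and 64. DUSP5, SPRY2, SPRY4 and PHLDA1 in MUM2B, and DUSP6, SPRY2, SPRY4 and ETV5 in OCM1, passed under every alternative run on 8 arrays other than the 2-fold threshold (largest adjusted p = 0.0456). The 12-array counts turned most on weighting: with array weights estimated gene by gene, which were 0.0517 for wild type OCM1 and 0.10 for wild type MUM2B replicate 1, the called genes numbered 5 for CANT1 in MUM2B, 6 in OCM1, 1 for the difference of the effects, and 6 and 9 for the lines in CANT1 and wild type cells. Weights by REML, which did not converge, gave 4, 6, 2, 6 and 10. The share of all genes called was not counted for these weights or for the alternatives that follow. Their counts therefore say nothing particular about the 10 genes. Every probe set as its own row gave 3 and 3 for the lines on 12 arrays and 6 for the difference of the effects on 8 arrays, where an intensity trend also gave 6. Only the arrays compared gave 6 for the lines in CANT1 cells on 12 arrays. At 2-fold or more, 8 arrays gave 3 for MUM2B, 0 for OCM1, 1 for the difference of the effects and 3 for the lines in CANT1 cells. Under gene by gene weights on 12 arrays the sign changed for ETV4 in OCM1 (−0.050), for DUSP4 (−0.46), ETV4 (−0.37), SPRY2 (−0.17) and SPRY4 (−0.098) in the difference of the effects, for PHLDA1 in CANT1 cells (0.21) and for SPRY4 in wild type cells (0.97) between lines; under REML weights the same values were −0.087, −0.39, −0.43, −0.12, −0.094, 0.21 and 0.93. An offset of 16 turned the 12-array difference of the effects for DUSP5 to 0.0042, and deposited values turned the 8-array line difference in CANT1 cells for SPRED1 to −0.071 and SPRED2 to −0.018. A filter at 2 arrays moved no count. The REML and gene by gene choice of weights, the filter at 2 arrays and the crossed block were chosen after seeing the data.

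Leaving out 1 array at a time gave 4 to 7 called genes for CANT1 in MUM2B on 8 arrays, and 1 to 5 and 1 to 4 for the lines in CANT1 and wild type cells on 12 arrays. The ranges of values whose sign changed follow. On 12 arrays, the CANT1 difference in MUM2B ran over −0.16 to 0.47 for ETV5, −0.27 to 0.45 for SPRED1, −0.051 to 0.15 for SPRED2, −0.13 to 0.91 for DUSP4, −0.028 to 1.11 for DUSP5, −0.048 to 1.12 for SPRY2. On 12 arrays, the CANT1 difference in OCM1 ran over −0.017 to 1.82 for DUSP4, −0.0093 to 1.30 for ETV4, −0.31 to 0.83 for PHLDA1. On 12 arrays, the difference of the CANT1 effects (OCM1 minus MUM2B) ran over −0.031 to 1.14 for SPRY2, −0.26 to 1.58 for DUSP4, −0.32 to 0.99 for ETV4, −0.79 to 0.35 for DUSP5, −1.29 to 0.46 for PHLDA1. On 12 arrays, OCM1 minus MUM2B in CANT1 cells ran over −0.35 to 0.12 for DUSP6, −0.45 to 0.12 for SPRED1, −0.15 to 0.27 for PHLDA1, −0.022 to 0.21 for SPRED2. On 12 arrays, OCM1 minus MUM2B in wild type cells ran over −0.57 to 0.73 for SPRY4, −0.46 to 1.38 for DUSP4, −0.48 to 1.27 for PHLDA1, −0.16 to 1.01 for SPRY2, −0.13 to 0.98 for ETV5. On 8 arrays, the CANT1 difference in MUM2B ran over −0.015 to 0.15 for SPRED1, −0.0039 to 0.14 for SPRED2. On 8 arrays, the CANT1 difference in OCM1 ran over −0.14 to 0.019 for ETV4, −0.096 to 0.0038 for DUSP4. On 8 arrays, the difference of the CANT1 effects (OCM1 minus MUM2B) ran over −0.080 to 0.43 for DUSP6. On 8 arrays, OCM1 minus MUM2B in CANT1 cells ran over −0.027 to 0.34 for PHLDA1, −0.011 to 0.14 for SPRED2, −0.014 to 0.037 for SPRED1.

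On 12 arrays the replicate numbers paired 4 of 6 pairs of groups by the rule used, and 8 of 12 arrays correlated best with arrays of their own number. With the replicate number as a block the counts were 0, 0, 0, 1 and 1 on 12 arrays and 7, 6, 3, 6 and 9 on 8 arrays, in the order CANT1 in MUM2B, in OCM1, their difference, and the lines in CANT1 and wild type cells; on 8 arrays DUSP5 in OCM1 newly passed (adjusted p = 0.0171), SPRED2 in OCM1 did not (adjusted p = 0.0515) and DUSP6 between wild type lines newly passed (adjusted p = 0.0347), and the block changed no other call of the 10 genes. Crossed numbers as a block gave 6 and 6 for OCM1 and for the lines in CANT1 cells. The cause of none of these changes was tested.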
